A study of Homo sapiens with 14 samples.

Results

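Open chromatin was compared between 4 RH30 libraries, 2 labelled shKDM4B-813 and 2 labelled shCtrl, out of the 14 libraries of the series. RH30 is an alveolar rhabdomyosarcoma cell line that carries the PAX3-FOXO1 fusion gene. Its cells had been transduced for 72 h with a short hairpin RNA, either a control hairpin (shCtrl) or a hairpin against the demethylase gene KDM4B (shKDM4B-813). Chromatin was read by ATAC-seq, in which the Tn5 transposase cuts and tags accessible DNA. Each library used 100000 cells, a transposition of 30 min and 12 cycles of PCR. The other 10 libraries served for description only, in groups of 2: RH30 with the second hairpin (shKDM4B-814), RH30 in 0.1% DMSO, RH30 in 200 nM QC6352, and LHCN with an empty vector or with added PAX3-FOXO1, all at 72 h. QC6352 inhibits the KDM4 demethylases, and LHCN is an immortalised human myoblast line. The labels give neither the level of KDM4B after transduction nor whether the 2 replicates of a group were separate cultures, and p-values here therefore reflect how far these libraries spread, which may be technical variation.

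KDM4B removes methyl groups from lysines of histone tails, including a mark of compacted chromatin, and thereby favours open, transcribed DNA. PAX3-FOXO1 joins the DNA-binding part of PAX3, a regulator of muscle precursors, to the activating part of FOXO1. The fusion drives alveolar rhabdomyosarcoma by binding distal enhancers and holding the cells in an undifferentiated myogenic state. A site that gains or loses an ATAC-seq peak has become more or less reachable for the transposase, which does not by itself say that a gene changed its expression.

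The labels and the contents of the hairpin files did not match. Every peak carries a name written by the peak caller, and in 8 of the 14 lists this name was that of the label. In all 6 hairpin lists it named another group. The lists labelled shCtrl hold peaks named sh813, those labelled shKDM4B-813 hold peaks named sh814, and those labelled shKDM4B-814 hold peaks named shCtrl, each with the replicate number of its label. The files do not settle which is right. Groups below are those of the labels, and "gained" and "lost" follow them. By the inner names the same 4 lists would set sh814 against sh813, with no control among them. In RH30 lists cut to 93488 peaks each, the Jaccard index of the regions with a peak (shared regions over all regions, 1 for identical sets) with the DMSO libraries averaged 0.436 for the libraries labelled shCtrl. It averaged 0.525 for those labelled shKDM4B-813 and 0.564 for those labelled shKDM4B-814. The 4 pairings behind each average spanned 0.432 to 0.442, 0.511 to 0.542 and 0.541 to 0.590. The libraries labelled as control were thus the hairpin libraries least like the untransduced DMSO controls. They were also the least like each other. At the same length the index between replicates was 0.544 for the label shCtrl, 0.655 for shKDM4B-813, 0.593 for shKDM4B-814 and 0.647 for DMSO.

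Leading peaks were stronger in the libraries labelled shKDM4B-813. These lists held 140342 and 138884 peaks, and those labelled shCtrl held 135927 and 146395. At the peak ranked 10000 in strength, the authors' −log10 q was 67.7 and 46.3 in the libraries labelled shKDM4B-813 and 30.9 and 34.6 in those labelled shCtrl. The authors' fold over background at that rank was 23.9 and 18.4 against 13.4 and 14.3. The groups did not overlap in either measure, and the same order held at ranks 1000 and 50000. At rank 90000 the −log10 q was 8.08 and 6.17 against 6.23 and 6.19, and the groups overlapped. Median peak width was 312 bp in both libraries labelled shKDM4B-813, against 330 and 335 bp, and the lists labelled shKDM4B-813 covered fewer bases (58.8 and 58.9 Mb against 65.4 and 72.7 Mb). The part that peak strength plays in the calls below was not tested. Read depth is unknown, since the lists hold no read counts. To compare lists, each was trimmed to its 135927 strongest peaks, and a peak's strength is given as its percentile within its trimmed list (100 for the strongest).

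**Figure D1:**
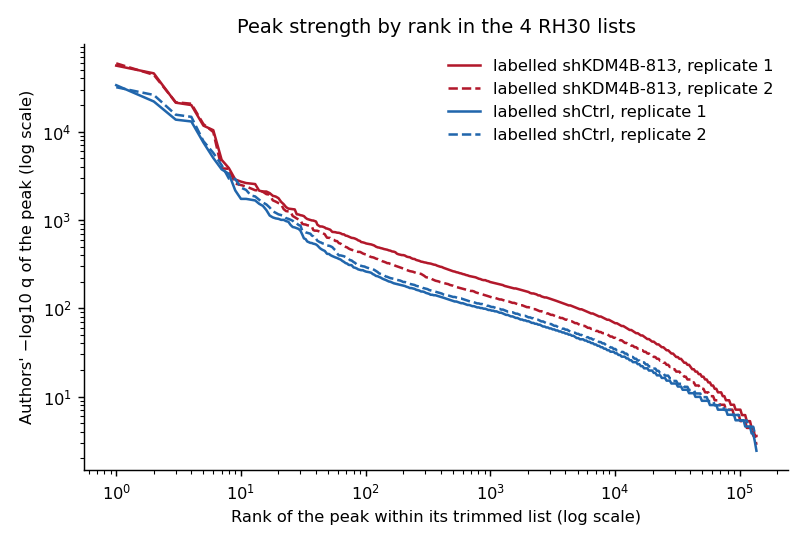
Authors' −log10 q (log axis) against the rank of each peak (log axis) in the 4 trimmed lists. Red lines are the libraries labelled shKDM4B-813 and blue lines those labelled shCtrl (solid, replicate 1; dashed, replicate 2); at rank 10000 the red lines are at 67.7 and 46.3 and the blue lines at 30.9 and 34.6.

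By the labels, more sites were gained than lost with shKDM4B-813. The 4 trimmed lists merged into 232560 regions. Of these, 25946 had a peak in both libraries labelled shKDM4B-813 and in neither labelled shCtrl (gained, 11.2%). The reverse held for 18180 (lost, 7.82%), and 51442 (22.1%) had a peak in all 4. Replicates of a label resembled each other more than they resembled the other label: the Jaccard index was 0.569 between the libraries labelled shKDM4B-813 and 0.511 between those labelled shCtrl, against 0.340 to 0.410 across them. Replicate 2 labelled shKDM4B-813 was the nearer to the other group, at 0.410 and 0.408, with replicate 1 at 0.342 and 0.340. With 2 libraries against 2 the smallest p of an exact two-sided permutation test is 1/3, and no region was tested for its presence. Single libraries differed in the regions that they alone held. Regions seen in 1 list only numbered 28895 and 15032 in replicates 1 and 2 labelled shKDM4B-813 and 27031 and 28978 in those labelled shCtrl. Leaving out a library loosens the rule, as fewer lists have to satisfy it, and all counts rose. Gained regions numbered 41828 and 55325 without replicate 1 or 2 labelled shKDM4B-813, and 32316 and 32606 without replicate 1 or 2 labelled shCtrl. Lost regions numbered 50803 and 50158 without replicate 1 or 2 labelled shCtrl, and 21791 and 28710 without replicate 1 or 2 labelled shKDM4B-813.

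Other reference libraries gave other counts, in shorter lists. In lists of 105136 peaks, the length of the shorter DMSO list, 22049 regions were gained and 14581 lost against the libraries labelled shCtrl. At the same length 12869 were gained and 10556 lost against the DMSO libraries. When the libraries labelled shCtrl and the DMSO libraries all had to lack or hold the peak, again at that length, 10840 were gained and 1859 lost. In lists of 93488 peaks the comparison by label gave 19596 gained and 12623 lost. By the names inside the lists, at this length, sh813 against shCtrl gave 10111 gained and 10105 lost, and sh814 against shCtrl gave 8748 and 4887.

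Gained sites included strong peaks and lost sites did not. Of the 11110 regions whose peaks lay above percentile 90 in both libraries labelled shKDM4B-813, 132 (1.19%) had no peak in either trimmed list labelled shCtrl. Of the 10602 such regions of the libraries labelled shCtrl, 0 were lost. Between percentiles 80 and 90 the calls were 805 of 11246 (7.16%) and 9 of 10308 (0.0873%). Most calls were weaker peaks: the lower of the 2 percentiles had a median of 41.2 (quartiles 24.3 and 57.6) for gained and 21.1 (9.74 and 35.9) for lost regions. Gained regions were also narrow, with a median width of 317 bp against 489 bp for lost regions, 703 bp for regions in all 4 lists and 338 bp for all regions. A stricter rule asked for a peak among the 50000 strongest of both lists of one label and for none in either full list of the other label. It left 4611 gained and 377 lost regions.

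The strongest gained region was on chromosome 5 from 28543009 to 28543542 (hg19, counted from 1, as all positions here). Its peak stood at percentile 98.5 in both libraries labelled shKDM4B-813, with authors' fold values of 43.8 and 32.8, and neither deposited list labelled shCtrl had a peak there. To set other libraries beside it, all lists were cut to the same 93488 peaks. The region then stood at percentile 97.9 in both libraries labelled shKDM4B-813, 88.0 and 70.8 in those labelled shKDM4B-814, and 92.0 and 96.5 with QC6352. With DMSO it stood at 54.9 in replicate 1 and had no peak in the cut list of replicate 2. The rule for gained regions asks for no peak in the libraries labelled shCtrl, and every other RH30 group had one in at least 1 replicate. At all 10 leading gained regions both cut lists labelled shKDM4B-814 had a peak and neither deposited list labelled shCtrl did. Both cut DMSO lists had a peak at 3 of the 10, and neither did at 4. Of all gained regions, 21.6% had a peak in both full lists labelled shKDM4B-814 and 27.9% in both full DMSO lists. Over all regions these shares were 27.3% and 33.6%. For the libraries labelled shKDM4B-814 the leading gained regions thus do not stand for the class. The 10 were chosen for high percentiles in the libraries labelled shKDM4B-813, which favours lower values elsewhere.

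A further 4 leading gained regions had other patterns in RH30 and in the myoblasts, given here as percentiles in lists of 93488 peaks. The region on chromosome 3 from 36207970 to 36208331 stood at 96.4 and 98.0 in the libraries labelled shKDM4B-813 and 70.5 and 71.0 in those labelled shKDM4B-814. No DMSO list had a peak there, and the 4 LHCN lists did, at 66.0 to 82.2. The region on chromosome 1 from 83616844 to 83617172 stood at 96.8 and 96.4 in the libraries labelled shKDM4B-813, with no peak in DMSO or QC6352. The LHCN vector libraries had a peak at that site, at 81.9 and 77.4, and the LHCN libraries with PAX3-FOXO1 had none. The region on chromosome 11 from 83662426 to 83662933 showed the opposite in LHCN. It stood at 97.0 and 94.5 in the libraries labelled shKDM4B-813, and in LHCN it was listed only with PAX3-FOXO1, at 47.7 and 23.1. The region on chromosome 14 from 79511582 to 79511991 was among the strongest sites of LHCN, at 99.3 to 99.7 in the 4 lists, and stood at 94.7 and 96.5 in the libraries labelled shKDM4B-813.

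The remaining 5 leading gained regions lay at percentiles 96.0 to 98.5 in the trimmed lists labelled shKDM4B-813. Those at chr3:115778494-115778898 and chr14:28984460-28985105 also had peaks in all 4 LHCN lists. Those at chr2:77387990-77388583, chr13:55587111-55587586 and chr5:23631208-23632147 had none in LHCN. The last of these closed the 10. In lists of 93488 peaks it stood at 94.2 and 96.3 in the libraries labelled shKDM4B-813, at 18.7 and 32.4 in those labelled shKDM4B-814 and at 10.3 and 31.9 with QC6352, with no DMSO peak. By the inner names, sh813 against shCtrl, all 10 became lost regions. By sh814 against shCtrl none was called, since the lists named shCtrl hold these peaks.

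The strongest lost regions stood lower in their lists than the strongest gained regions. The first was on chromosome 8 from 10255844 to 10256196, with percentiles of 84.9 and 87.9 and authors' fold values of 9.66 and 11.4 in the libraries labelled shCtrl. No deposited list labelled shKDM4B-813 had a peak there. In lists of 93488 peaks it stood at 78.0 and 82.3 in the libraries labelled shCtrl, 73.0 and 68.4 in those labelled shKDM4B-814 and 75.7 and 66.5 with DMSO. No LHCN list and neither QC6352 list had a peak at that site. The libraries labelled shKDM4B-813 and those with QC6352 thus lacked a site that the other RH30 groups held.

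The presence of a peak in DMSO and its absence with QC6352 recurred among the 10 leading lost regions, but lost regions as a whole did not follow it. In lists of 93488 peaks, both DMSO lists had a peak at 9 of the 10 and both lists labelled shKDM4B-814 at 8, while neither QC6352 list had one at 9. In the deposited lists, which reach weaker peaks, neither QC6352 list had one at 6 and 1 of the 2 did at 4. No deposited list labelled shKDM4B-813 had a peak at any of the 10. Over all lost regions, in lists of 93488 peaks, DMSO replicates 1 and 2 had a peak in 9.57% and 12.5%. QC6352 replicates 1 and 2 had one in 13.2% and 28.0%, so the class was held more often with QC6352 than with DMSO. Both full lists labelled shKDM4B-814 had a peak in 3.42% of lost regions, beside 27.3% of all regions. The leading lost regions therefore do not stand for the class in these respects. The region on chromosome 12 from 12910078 to 12910396 stood at 77.6 and 77.9 in the libraries labelled shCtrl, 47.4 and 56.2 with DMSO and 48.8 and 37.1 in those labelled shKDM4B-814. The region on chromosome 5 from 176327356 to 176327858 stood at 76.3 and 81.3, 74.0 and 69.2, and 56.0 and 63.9 in the same groups. LHCN had this chromosome 5 peak only with PAX3-FOXO1, at 65.5 and 64.1. On chromosome 10 from 35862624 to 35863010 the libraries labelled shCtrl stood at 75.9 and 81.0, and all 4 LHCN lists had a peak, at 39.4 to 74.7. In each of these regions the libraries labelled shCtrl were higher than the other RH30 libraries that had the peak. The regions were chosen for high percentiles in the libraries labelled shCtrl, which favours this order.

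The other 6 leading lost regions stood at percentiles 79.2 to 88.7 in the libraries labelled shCtrl. They were chr15:90622159-90622936, chr17:77088839-77089380, chr7:30687212-30687543, chr1:156091167-156091588, chr22:24019504-24020215 and chr1:46483739-46484062. The last, at percentiles of 79.2 and 81.8, was absent from both lists labelled shKDM4B-814. With the DMSO libraries as control (lists of 105136 peaks), 9 of the 10 leading lost regions were again called lost. Of the 10 leading gained regions, 4 were again called gained. By the inner names, sh814 against shCtrl, 8 of the 10 lost regions were again called lost. Each comparison keeps the lists labelled shKDM4B-813 that chose the regions. The counts therefore only say at which regions the other lists held a peak.

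**Figure D2:**
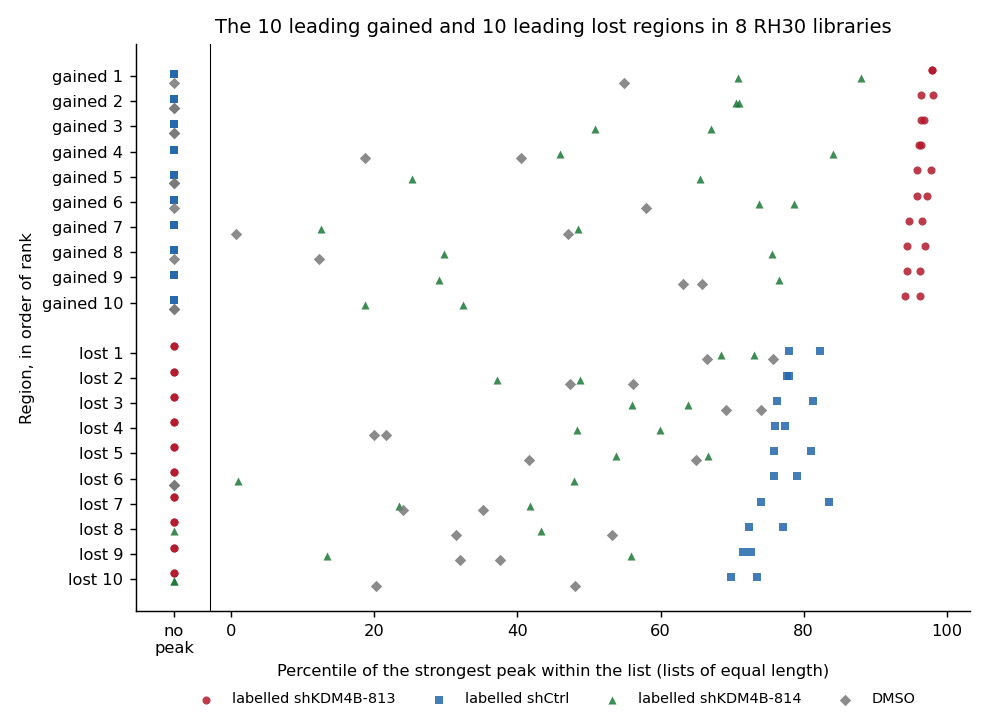
Percentile of the strongest peak at the 10 leading gained and 10 leading lost regions, in order of rank, in 8 RH30 libraries whose lists were all cut to 93488 peaks. Each point is a library, coloured by its label, and points left of the line mean no peak in the list. At gained regions blue has no peak by the rule. The green libraries labelled shKDM4B-814 lie below red there, which choosing regions for high percentiles in red favours. At lost regions red has no peak by the rule, and most green and grey points have one.

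Libraries outside the comparison placed the gained and lost regions differently. Lists longer than 135927 peaks were trimmed to that length here, and the DMSO lists, both lists labelled shKDM4B-814 and 1 QC6352 list were shorter and used whole. Of the gained regions, 37.4% and 38.7% had a peak in the DMSO libraries (38.0% ± 0.95, SD, n = 2), near the 40.7% ± 3.9 over all regions. Of the lost regions 13.0% and 24.2% did (18.6% ± 7.9). Most lost regions thus had no peak in the DMSO lists, which were shorter than the trimmed lists labelled shCtrl that held them. Only 1771 lost regions (9.74%) had a peak in both DMSO lists, and 13184 (72.5%) in neither. Of the gained regions, 7234 (27.9%) had a peak in both and 13441 (51.8%) in neither.

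The libraries labelled shKDM4B-814 split the same way. Gained regions had a peak in 43.7% and 29.1% of cases (36.4% ± 10.0, SD, n = 2), and lost regions in 9.32% and 12.0% (10.7% ± 1.9), beside 34.7% ± 1.8 over all regions. These lists were compared only as a description, and no test of their likeness to the libraries labelled shKDM4B-813 was run. In the QC6352 libraries the shares of gained regions were 37.3% and 48.5% and of lost regions 21.1% and 51.0% in replicates 1 and 2. Regions in all 4 compared lists were open almost everywhere in RH30, at 89.0% to 93.2% on average in the 3 groups. With all 14 lists cut to 93488 peaks, the DMSO shares were 34.7% and 31.7% for gained and 9.57% and 12.5% for lost regions. The QC6352 shares were then 34.7% and 40.7% for gained and 13.2% and 28.0% for lost regions, so the order of the classes in replicate 2 turned with the list length. At that length the lists labelled shCtrl themselves kept a peak in only 53.3% of lost regions on average. Those labelled shKDM4B-813 kept one in 77.6% of gained regions. Lost regions were the weaker peaks, and the part of peak strength in these shares was not tested.

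In LHCN myoblasts the contrast was wider. Gained regions had a peak in 49.2% ± 0.23 of cases with vector and 55.8% ± 0.15 with PAX3-FOXO1 (SD, n = 2), against 33.2% ± 0.033 and 36.5% ± 0.27 over all regions. Lost regions did in 6.80% ± 0.21 and 7.19% ± 0.33. Of the lost regions 89.9% (16346) had no peak in any LHCN list, against 36.9% of gained regions and 58.7% of all regions. Sites that PAX3-FOXO1 opened in LHCN were those with a peak in both fusion lists and in neither vector list. They made up 1847 gained regions (7.12%) and 170 lost regions (0.935%), beside 6.11% of the regions in all 4 lists and 3.83% of all regions. Sites that closed with PAX3-FOXO1 in LHCN made up 1.77% of gained and 0.693% of lost regions, beside 1.16% of all regions.

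**Figure D3:**
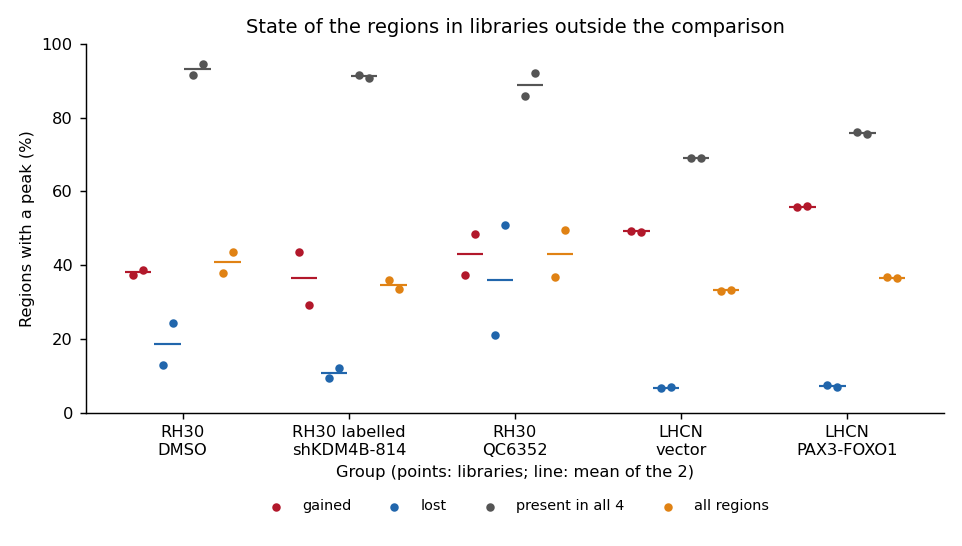
Share of regions (%) with a peak in each library of the 5 groups outside the comparison, for gained, lost, shared (in all 4 lists) and all regions. Points are libraries and lines their mean (n = 2); lost regions lie below all regions in DMSO, in the libraries labelled shKDM4B-814 and in LHCN, and gained regions lie above all regions in LHCN.

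The shares of gained and lost regions differed by chromosome. On chromosome 18, 22.9% of regions were gained and 1.53% lost, and chromosomes X (21.6% and 1.74%), 13 (20.1% and 2.16%) and 4 (19.4% and 4.73%) were alike. On chromosome 19, 1.54% were gained and 16.8% lost, and chromosomes 22 (2.07% and 15.9%) and 17 (3.55% and 13.1%) were alike. Gained exceeded lost shares on 17 of the 23 chromosomes from 1 to 22 and X, and the reverse held on 6, namely 9, 16, 17, 19, 20 and 22. The shares were nearly even on chromosomes 1 (8.69% and 8.59%), 11 (9.64% and 8.80%) and 15 (8.47% and 7.61%). Chromosomes 19, 22 and 17 are known for high gene density and GC content, and 18, 13, 4 and X for low gene density. The number of LHCN vector peaks (replicate 1) within 500000 bp on either side of a region gives a measure of dense chromatin activity that no RH30 list entered. Its median was 65 for gained regions (quartiles 38 and 86), 93 for lost regions (75 and 110) and 82 for all regions (59 and 102).

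With the DMSO libraries as control, in lists of 105136 peaks, the chromosomes kept their side on 18 of 23. Chromosome 19 then had 3.39% gained and 7.12% lost, and chromosome 18 had 13.9% and 4.59%. By the inner names, in lists of 93488 peaks, the contrast turned for sh813 against shCtrl, with 15.1% gained and 1.43% lost on chromosome 19 and 0.469% and 14.5% on chromosome 18. For sh814 against shCtrl it was 2.94% and 3.62% on chromosome 19 and 7.97% and 2.71% on chromosome 18. GC content and depth were not measured here, and their part in this pattern was not tested.

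**Figure D4:**
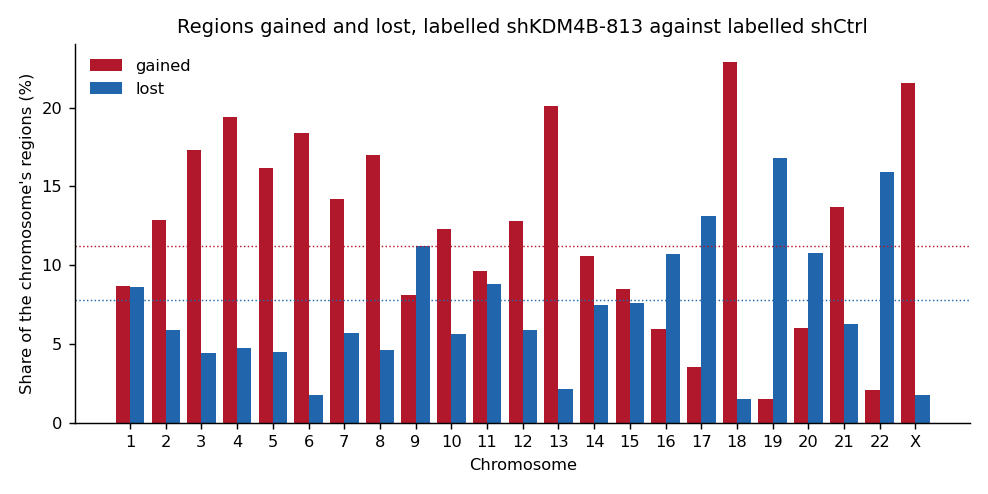
Share of each chromosome's regions (%) that were gained (red) or lost (blue) in the libraries labelled shKDM4B-813 against those labelled shCtrl. Dotted lines mark the shares over all regions, 11.2% gained and 7.82% lost; chromosomes 18, X and 13 have the highest gained shares and 19, 22 and 17 the highest lost shares.

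Counted in 1 Mb windows, gains were most numerous on chromosome 6, which held all 5 leading windows. Windows were ranked by count and not by share. Over all of chromosome 6, 1963 of 10648 regions were gained (18.4%) and 1.77% lost, so gains were not particular to these windows. From 72000001 to 73000000, 99 of 515 regions were gained and 1 was lost. The window held 428 and 383 peaks in the libraries labelled shKDM4B-813 and 232 and 198 in those labelled shCtrl. In lists cut to 93488 peaks it held 395 and 362 peaks in the libraries labelled shKDM4B-814, 359 and 305 in DMSO and 36 and 32 in LHCN with vector. The libraries labelled shCtrl were the lowest of these RH30 libraries there, also against the shorter lists, which choosing windows by gains favours. LHCN had far fewer peaks. The next windows, from 73000001 to 74000000 and from 74000001 to 75000000, had 80 gained and 11 lost of 527 regions and 67 gained and 21 lost of 559. In the window from 69000001 to 70000000, 63 of 266 regions were gained and 0 lost, with 218 and 188 peaks against 73 and 73. The window from 70000001 to 71000000 followed with 56 gained and 3 lost of 321.

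Losses were most numerous in windows near chromosome ends. On chromosome 1 from 2000001 to 3000000, 138 of 534 regions were lost and 0 gained. That window held 168 and 339 peaks in the libraries labelled shKDM4B-813 and 527 and 522 in those labelled shCtrl. In lists cut to 93488 peaks it held 122 and 157 in the libraries labelled shKDM4B-814, 64 and 90 in DMSO and 53 and 51 in LHCN with vector. Against the libraries labelled shKDM4B-813, whose lists have the same length, those labelled shCtrl were high, which choosing windows by losses favours. Replicate 2 labelled shKDM4B-813 lay between replicate 1 and the libraries labelled shCtrl.

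The other 4 windows had the same order. On chromosome 22 from 49000001 to 50000000, 125 of 487 regions were lost, with 72 and 190 peaks in the libraries labelled shKDM4B-813 and 409 and 393 in those labelled shCtrl. On chromosome 19, 117 of 468 regions were lost from 3000001 to 4000000 and 114 of 526 from 1000001 to 2000000. On chromosome 1 from 3000001 to 4000000, 119 of 508 were lost. Over the whole of chromosomes 1, 19 and 22, 8.59%, 16.8% and 15.9% of regions were lost. Windows were ranked by count, which favours windows with many regions, and no test of clustering was run.

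Among the 51442 regions open in all 4 libraries, rank changes were frequent but did not pass the test across regions. Percentiles correlated more within a label than across: Pearson's r over these regions was 0.839 between the libraries labelled shKDM4B-813 and 0.689 between those labelled shCtrl, against 0.507 to 0.587 across. The regions share their libraries, so these values are a description. limma with Benjamini-Hochberg adjustment called 0 regions higher (0.0%) and 0 lower (0.0%) at an adjusted p under 0.05, with a lowest adjusted p of 0.0857. At an unadjusted p under 0.05 it had 5203 regions higher (10.1%) and 8641 lower (16.8%). Both libraries of one label lay above both of the other in 12014 regions in the direction of shKDM4B-813 (23.4%) and in 18574 in the direction of shCtrl (36.1%). A mean percentile more than 20 points higher in the libraries labelled shKDM4B-813 was found in 4483 regions (8.71%), and one more than 20 points lower in 8527 (16.6%). The median difference over all 51442 regions was −1.49 points, and by chromosome it ran from −8.68 on 19, −8.49 on 22 and −7.80 on 17 to 1.93 on 13. The absence of calls depended on the scale: on normal scores of the ranks, limma with the same adjustment called 2811 regions higher and 3336 lower. Leaving out a library leaves 1 library in its group, which limma then assumes to vary like the other group. In such fits limma called 1693 or 1762 regions higher without replicate 1 or 2 labelled shCtrl, and 1041 or 279 lower without replicate 1 or 2 labelled shKDM4B-813.

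**Figure D5:**
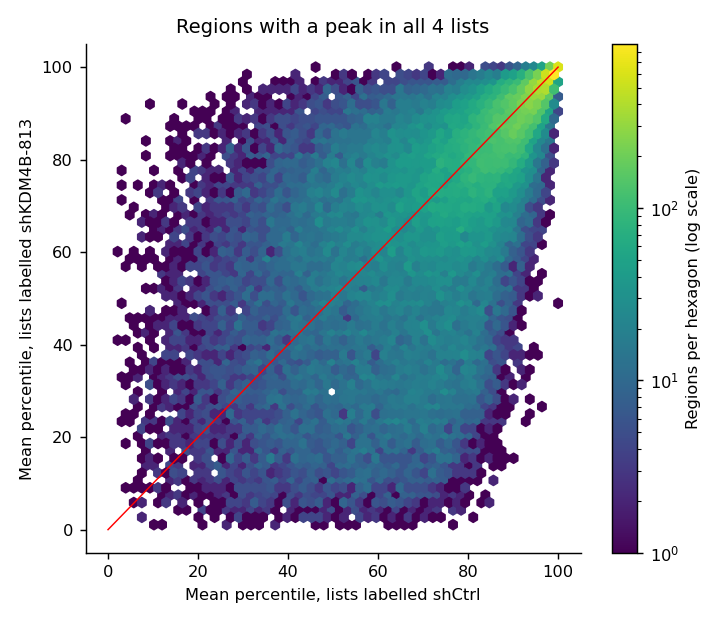
Mean percentile in the libraries labelled shKDM4B-813 against that in the libraries labelled shCtrl for the 51442 regions with a peak in all 4 trimmed lists; colour gives the number of regions per hexagon on a log scale and the red line marks equality. More regions lie far below the line (8527 by over 20 points) than far above it (4483).

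As no region passed limma's test, the following are those with the largest differences among regions whose groups did not overlap, each with an adjusted p of 0.0857 (limma, Benjamini-Hochberg). On chromosome 14 from 97990017 to 97990790 the percentiles were 86.3 and 92.2 in the libraries labelled shKDM4B-813 and 1.39 and 7.40 in those labelled shCtrl, a difference of 84.9 points (SE 12.7). On chromosome X from 112517311 to 112517975 they were 91.1 and 92.5 against 3.17 and 14.2, a difference of 83.1 (SE 12.5). Both sites were thus near the top of one pair of lists and near the bottom of the other. On chromosome 2 from 75750464 to 75751225 they were 91.4 and 92.0 against 19.2 and 12.3. The 10 regions of this kind spanned differences of 71.6 to 84.9 points. Both lists labelled shKDM4B-814 had a peak at all 10, and both deposited DMSO lists at 7. Over all regions open in all 4 libraries the shares were 87.0% and 90.2%. In lists of 93488 peaks the chromosome X region stood at 87.1 and 89.1 in the libraries labelled shKDM4B-813, 78.4 and 74.9 in those labelled shKDM4B-814, 64.0 and 41.5 with DMSO and 71.9 and 91.3 with QC6352, and it was in neither list labelled shCtrl. All 4 deposited LHCN lists had a peak at 5 of the 10 and no LHCN list at the other 5.

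The 10 regions with the largest falls in rank differed by −79.2 to −74.3 points and were 482 to 3911 bp wide, against 460 to 774 bp for those above. On chromosome 22 from 23255614 to 23256666 the percentiles were 4.14 and 8.42 in the libraries labelled shKDM4B-813 and 86.5 and 84.4 in those labelled shCtrl, a difference of −79.2 points (SE 12.7). In lists of 93488 peaks it stood at 80.4 and 77.3 in the libraries labelled shCtrl, 39.4 and 55.9 in those labelled shKDM4B-814 and 70.3 and 26.2 with DMSO. On chromosome 14 from 105848353 to 105849998 the percentiles were 0.607 and 11.2 against 86.8 and 82.3. No DMSO list and no list labelled shKDM4B-814 had a peak at that site, and 1 QC6352 library had one, at percentile 41.0 in its cut list. Of the 10 regions, 6 had a peak in both lists labelled shKDM4B-814 and 3 in neither, and 6 had no peak in any LHCN list. On chromosome 5 from 1097926 to 1098407 the percentiles were 2.71 and 24.3 against 90.4 and 85.2. On chromosome 19 from 1751775 to 1755685, a region of 3911 bp inside a leading window of losses, they were 4.79 and 2.34 against 75.1 and 80.6.

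Other RH30 libraries took middle ranks by median in the regions whose groups did not overlap, which choosing regions with the groups apart favours. In the regions higher in the libraries labelled shKDM4B-813 that DMSO also held (9671), the median percentile was 86.3 in the libraries labelled shKDM4B-813, 68.0 in those labelled shCtrl and 76.0 in DMSO. DMSO was nearer to the libraries labelled shKDM4B-813 in 48.8% of them, and the libraries labelled shKDM4B-814 were in 63.8% of 9814. In the regions lower in the libraries labelled shKDM4B-813 (12813 with DMSO), the medians were 66.6, 84.0 and 80.7, and DMSO was nearer to the libraries labelled shKDM4B-813 in 31.5%. There the libraries labelled shKDM4B-814 had a median of 77.3 and were nearer to those labelled shKDM4B-813 in 40.6% of 12819. QC6352 was nearer to the libraries labelled shKDM4B-813 in 54.0% of 8927 higher and 50.3% of 11298 lower regions. In the lower regions DMSO was thus mostly nearer to the libraries labelled shCtrl, while in the higher ones it lay about midway. These percentiles come from lists of 93488 peaks and from regions with a peak in all 6 lists compared, and are a description.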

How the data were processed

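ATAC-seq peak lists of 14 libraries, 2 in each of 7 groups, were used. The submitters' processing notes name BWA 0.7.12-r1039, Picard 1.65, SAMtools 1.3.1, MACS2 2.1.1 and build hg19. Not given in the sources used here are their settings, the read filters and whether reads were shifted to the transposase's cut, and such choices can move peak edges and numbers. Each deposited list gives, per peak, a position and 4 values from the authors' peak caller. The deposited score was not used. The authors' fold, a ratio over background, broke ties and described peaks. The deposited −log10 q ranked them, and the deposited −log10 p was not used. Lists hold only peaks above the caller's limit, so absence means no listed peak.

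Groups and replicate numbers came from the titles. The 4 compared lists were trimmed to the shortest, 135927 peaks, by −log10 q (ties by fold, further ties by position), leaving out 0 to 10468 peaks each. The lowest −log10 q kept was 2.44 to 3.80. Peaks sharing 1 bp were merged. A percentile is the rank of a region's strongest peak within its list. Regions in all 4 lists were tested on percentiles with limma 3.58.1 (R 4.3.3, eBayes with trend, no block). Benjamini-Hochberg adjustment was used, with a threshold of 0.05. The fit was also run on simulated data, whose outcome is not reported here. With 2 libraries a group, 0 calls do not show that no region changed. Tables were made with Python 3.11.15, NumPy 2.4.6 and pandas 2.3.3.

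Named regions are, per direction, the 10 called regions with the highest lower-of-2 percentile, the 10 largest rank differences (by size among regions whose groups did not overlap where none passed the test), and the 5 windows of 1 Mb with the most calls. The libraries, the lists and these rules were chosen with earlier results of these data known. The groupings by inner name, the requirement of both controls, the DMSO control in the limma fit, the cut of all 14 lists to 93488 peaks, the comparison by label at 105136 peaks and the indices with DMSO were added after the lists were seen. Without an hg19 annotation or genome, regions are not tied to genes or gene parts, and the planned gene lists, cell type markers and sequences were not run.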

Additional observations from a re-analysis of the deposited data

How the results depend on the processing

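Some settings kept the count of gained regions within 1.5 times of 25946 and that of lost regions within 1.5 times of 18180. These were the lists as deposited, a coverage of 50% of the region and 500 bp windows on summits. Ranking by fold gave the same calls and the same limma counts, and was thus no separate check. Counts also stayed in that range with lists cut to the shortest of the 6 hairpin lists (19596 gained, 12623 lost) or to the length used with the DMSO control (22049 and 14581). The 50000 strongest peaks gave 9260 gained and 6246 lost. A −log10 q limit of 10 gave 17941 gained and only 2962 lost. Strong against absent peaks gave 4611 and 377, the DMSO control 12869 and 10556, and both controls together 10840 and 1859. The inner names gave 10111 and 10105 for sh813 against shCtrl and 8748 and 4887 for sh814 against shCtrl. Leaving out each library in turn gave 32316 to 55325 gained and 21791 to 50803 lost, a looser rule with fewer lists to satisfy.

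limma's counts were 0 higher and 0 lower also with the lists as deposited, the 50000 strongest peaks, ranking by fold, a mean percentile of 25 or more and both groupings by inner name. They were 2811 and 3336 on normal scores, 3507 and 3406 with the DMSO control, and 0 to 1762 and 21 to 1041 without each library in turn, where the lone library is assumed to vary like the other group. With the replicate number as a block they were 3135 and 4094, and by the names sh814 against shCtrl with that replicate block 1880 and 1409. The numbers did not pair the libraries: the replicate differences of the groups correlated at r = 0.00887 over 51442 regions. The cause of these changes was not tested. With all 14 lists cut to 93488 peaks, the share of gained regions with a DMSO peak was 33.2% in place of 38.0%.

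Written as 1 for gained, −1 for lost and 0 for neither, the call of all 10 leading gained regions went from 1 to −1 by the names sh813 against shCtrl, and that of the last leading lost region from −1 to 1. There the lower regions on chromosomes 22 (both), 21, 17, 7 and 19 had differences of 31.2, 49.7, 44.5, 2.21, 57.0 and 47.1 points, above 0 because the libraries labelled shCtrl then form the treated arm. With 2 libraries a group and no read counts, weak peaks near the limits of the lists are the least certain, and no depth could be set beside a value.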
